A study of Mus musculus with 6 samples.

Results

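Wnt negative feedback inhibitors are proteins that a cell makes in response to Wnt signaling and that in turn restrain it. The 10 genes Axin2, Nkd1, Nkd2, Notum, Dkk4, Dkk2, Wif1, Apcdd1, Znrf3 and Rnf43 were compared here between mouse penile tumors and normal penile epithelium. They were chosen by name, with earlier results of these data known, and all 10 were found among the 24063 gene symbols of the count tables. All 10 also passed the filter on low counts, which left 16336 genes. Dkk4, with 9 to 14 counts in normal epithelium, passed it only through the tumors.

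In the canonical Wnt pathway, a ligand bound to a Frizzled receptor and an LRP5 or LRP6 co-receptor blocks the complex of Apc, Axin, Gsk3 and casein kinase that marks β-catenin for destruction. β-catenin then enters the nucleus and activates target genes together with TCF and LEF factors. Several of these targets act back on the pathway at the ligand, the receptor, Dishevelled or the destruction complex. Loss of Apc activates the pathway below the receptors, and in skin and its appendages the pathway is best known for its part in the hair follicle.

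RNA-seq was done on penile tumors of 3 mice with the PB-Cre+ Smad4L/L ApcL/L genotype (SA) and on 3 samples of penile epithelium from wild type (WT) C57BL/6 mice, all aged 5 months. The transgene PB-Cre is driven by an androgen-responsive promoter and deletes the floxed Smad4 and Apc genes in androgen-responsive epithelium, and the tumors arose without a carcinogen. WT mice lack both the Cre and the floxed alleles, so effects of the deletion, of tumor formation and of the strain background cannot be told apart. The question was how the inhibitors differ between tumor and normal tissue.

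Libraries held 23828283 to 110509147 counts over the gene rows, and the deepest, from the third SA tumor, exceeded the median of the remaining 5 by a factor of 4.42. Levels are given as counts per 1e+06 (CPM) after TMM scaling, where 3 counts equal 0.0244 to 0.137 CPM, a floor that covers counting error only. Smad4 had 36.1 to 46.1 CPM in SA tumors and 61.2 to 72.5 in WT penises (log2 fold change -0.77, adjusted p = 0.00114). Apc RNA was at 194 to 253 CPM in SA tumors against 62.5 to 91.1 in WT penises (log2 fold change 1.43, adjusted p = 0.000185), and a count over the whole transcript does not show whether the floxed part was lost. All 14 epithelial markers were detected in both groups, with a summed level of 17100 to 18800 CPM in SA tumors and 33100 to 35800 in WT penises. The markers did not move as 1: Epcam was called higher (log2 fold change 2.35), 9 were lower at an adjusted p under 0.01, and none was called lower. All 8 smooth muscle markers were also detected in both, at 90.0 to 198 against 1650 to 2180 CPM summed, and 7 of them were called lower. With the libraries scaled to the epithelial markers instead, the same 8 inhibitor genes were called, and the part of other cell types in the levels below was not tested. In bulk tissue, fewer cells of a type and less RNA per cell cannot be told apart.

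Of the 10 inhibitor genes, 8 were upregulated in SA tumors past both thresholds used, which were 0.01 for the adjusted p-value and 2 for the log2 fold change. Over all genes tested, 9.41% were called higher and 3.59% lower at these thresholds, and none of the 10 was called lower. Dkk4 rose most, followed by Wif1, Nkd1, Apcdd1, Notum and Axin2, whose log2 fold changes lay close together between 3.83 and 4.39. Znrf3 and Rnf43 rose less, by log2 fold changes of 2.36 and 2.16. Dkk2 rose by less than the fold threshold, and Nkd2 did not pass the test. At an adjusted p-value under 0.01 and any fold change, 9 of the 10 were higher, against 20.1% of all genes tested. Log2 fold changes had a median of 3.91 over the 10 genes and of 0.03 over the 16336.

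**Figure D1:**
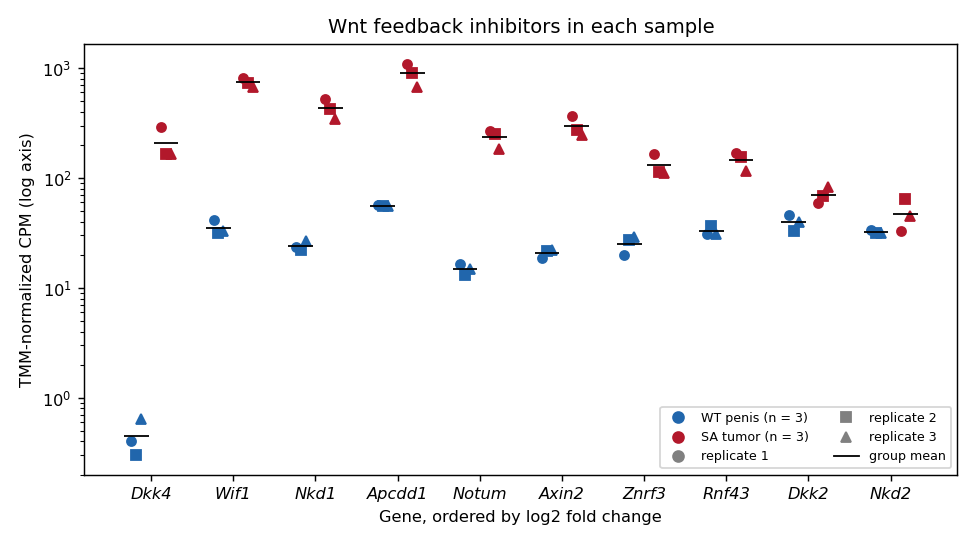
Each point is the TMM-normalized CPM of 1 gene in 1 sample on a log axis, with WT penises in blue, SA tumors in red, the replicate number by shape and the mean of each group as a bar (n = 3). In 9 of the 10 genes every tumor lies above every WT penis, and in Nkd2 the first tumor, at 33.1 CPM, lies below the highest WT penis, at 33.4 CPM.

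Every SA tumor was above every WT penis for 9 of the 10 genes, and 32.7% of all genes tested had the same order. For the 8 genes called, the lowest tumor was at least 3.17 times the highest WT penis, a distance seen in Rnf43. An exact permutation test of 1 gene (two-sided, 3 against 3 samples) cannot give a p-value below 0.10, and the p-values below are from edgeR's quasi-likelihood test across all genes with Benjamini-Hochberg adjustment.

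Among the inhibitors that act inside the cell, Axin2 encodes a scaffold of the destruction complex and is a widely used β-catenin target. It lies on chromosome 11 of mm10 from 108920349 to 108950783. Its levels were 368, 273 and 245 CPM in the 3 SA tumors and 18.6, 21.5 and 22.1 in the 3 WT penises. The lowest tumor was 11.1 times the highest WT penis. The means were 296 ± 64.2 and 20.7 ± 1.85 CPM (SD, n = 3 each). On the log2 scale Axin2 rose by 3.83 with a standard error of 0.175 (adjusted p = 2.23e-06).

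Nkd1 and Nkd2 encode related proteins that bind Dishevelled, the cytoplasmic protein that relays the signal from the receptor. Nkd1 (chromosome 8, 88521354 to 88594884) was at 529, 427 and 346 CPM in SA tumors and at 23.4, 22.2 and 26.7 in WT penises. Nkd1 rose by 4.17 on the log2 scale, with a standard error of 0.181 (adjusted p = 1.98e-06), and the groups were far apart. Nkd2 (chromosome 13, 73818534 to 73847631) was at 33.1, 64.3 and 44.8 CPM in SA tumors and at 33.4, 31.4 and 31.3 in WT penises. The first SA tumor was within the range of the WT penises and the other 2 were above it. The log2 fold change of Nkd2 was 0.57 (95% interval 0.07 to 1.06, adjusted p = 0.0539). Without the first SA tumor it was 0.76 (adjusted p = 0.00442), and without the second it was 0.28 (adjusted p = 0.155). The adjusted p was 0.00995 with library totals as the only scaling and 0.003 with scaling to the epithelial markers.

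The 250 bases before the RefSeq start of 4 of these genes are shown to set genes that were called beside genes that were not. Axin2 and Nkd1 were called, while Nkd2, the paralog of Nkd1, and Dkk2 were not. The windows are chr11:108920099-108920348 and chr8:88527383-88527632 on the plus strand, chr13:73847632-73847881 on the minus strand and chr3:132085042-132085291 on the plus strand of GRCm38.p6, the build also called mm10. The RefSeq start of Nkd1 lies inside the gene as GENCODE annotates it, downstream of its first base. Sequences run 5′ to 3′ on the strand of the gene, and capitals mark matches to TATAAA or to the TCF/LEF letters CTTTGAA and CTTTGAT, searched on both strands.
Axin2: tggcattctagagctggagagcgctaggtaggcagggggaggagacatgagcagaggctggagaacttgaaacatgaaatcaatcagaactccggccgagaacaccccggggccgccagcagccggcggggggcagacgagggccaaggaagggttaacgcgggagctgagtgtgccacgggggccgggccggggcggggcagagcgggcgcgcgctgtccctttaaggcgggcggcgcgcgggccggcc
Nkd1: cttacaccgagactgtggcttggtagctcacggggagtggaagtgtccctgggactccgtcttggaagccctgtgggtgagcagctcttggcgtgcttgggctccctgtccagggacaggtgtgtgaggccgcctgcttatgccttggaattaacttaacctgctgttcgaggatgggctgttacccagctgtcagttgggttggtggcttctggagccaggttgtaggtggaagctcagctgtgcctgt
Nkd2: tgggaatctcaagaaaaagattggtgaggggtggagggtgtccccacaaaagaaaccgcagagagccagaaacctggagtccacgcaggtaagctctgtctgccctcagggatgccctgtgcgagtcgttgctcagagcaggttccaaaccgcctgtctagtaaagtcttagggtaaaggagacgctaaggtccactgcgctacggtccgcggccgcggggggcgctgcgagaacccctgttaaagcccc
Dkk2: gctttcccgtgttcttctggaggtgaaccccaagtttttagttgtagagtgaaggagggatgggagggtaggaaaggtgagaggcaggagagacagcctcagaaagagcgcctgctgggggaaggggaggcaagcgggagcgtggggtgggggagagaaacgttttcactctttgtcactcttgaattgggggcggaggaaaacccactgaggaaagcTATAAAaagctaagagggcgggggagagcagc

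None of these 4 windows held either TCF/LEF string, and neither did those of Wif1 or Rnf43, the other members in the RefSeq table. Of all 32851 promoter windows of this length, 7.48% held at least 1. The absence says only that these letters are not in these windows. All sequence searched for Rnf43 lay inside the gene as GENCODE annotates it, and the window of Wif1 ran past the first annotated base of that gene. The single match in capitals is a TATAAA string that begins 32 bases before the start of Dkk2, and 12.4% of all windows held that string on either strand. The window of Wif1, a called gene whose sequence is not shown, held it on the opposite strand, 232 bases before the start. The GC content was 69.2% before Axin2, 58.4% before both Nkd1 and Nkd2, and 55.6% before Dkk2.

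Among the secreted inhibitors, Notum is an enzyme that removes the lipid from Wnt ligands and so inactivates them. Notum (chromosome 11, 120653788 to 120661175) was at 270, 251 and 185 CPM in SA tumors and at 16.6, 13.2 and 14.9 in WT penises. The groups were far apart, and Notum rose by 3.98 on the log2 scale, with a standard error of 0.174 (adjusted p = 2.02e-06). Wif1 encodes a secreted protein that binds Wnt ligands directly. Wif1 (chromosome 10, 121033960 to 121100650) was at 820, 726 and 680 CPM in SA tumors and at 41.8, 31.4 and 33.1 in WT penises. It varied least among the tumors, with a coefficient of variation of 9.59%, and had the smallest adjusted p of the 10 genes (log2 fold change 4.39 ± 0.155 SE, adjusted p = 1.04e-06).

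Dkk4 and Dkk2 belong to the Dickkopf family of secreted proteins, which bind LRP5 and LRP6. Dkk4 (chromosome 8, 22624043 to 22627547) was at 291, 166 and 165 CPM in SA tumors. The WT penises held 9, 9 and 14 counts of Dkk4, or 0.407, 0.300 and 0.638 CPM, above the floor of 3 counts. The ratio of the group means was 462, and the log2 fold change of 8.88 ± 0.379 SE (adjusted p = 2.76e-06) was the 58th largest increase of all genes tested. Dkk4 was among the genes tested only through its counts in SA tumors. Dkk2, which can act as an inhibitor or as an activator depending on the cell, lies on chromosome 3 from 132085292 to 132180304. Its levels were 59.8, 68.8 and 82.2 CPM in SA tumors and 45.9, 33.2 and 39.5 in WT penises. The groups did not overlap, but the lowest tumor was 1.30 times the highest WT penis. The log2 fold change of Dkk2 was 0.83 (95% interval 0.47 to 1.19, adjusted p = 0.00231), and the adjusted p rose to 0.013 without the second WT penis and to 0.0123 without the third.

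Summed fibroblast markers were at 1730, 4610 and 5810 CPM in the 3 SA tumors and at 6530 to 6860 in the WT penises. Their mean log2 CPM, which weights each marker equally, was 6.59, 7.83 and 8.22 in tumors 1 to 3. In the WT penises it was 7.87, 7.84 and 7.96, so by this measure the third tumor was above all of them. Dkk2 and Nkd2, the 2 genes not called, were both lowest in the first tumor, which also had the lowest fibroblast sum. The first tumor was likewise lowest in the sums of smooth muscle, endothelial, leukocyte, and nerve and Schwann cell markers, so the order was not particular to fibroblasts. All 10 fibroblast markers were detected in both groups, 1 was higher and 1 lower at an adjusted p under 0.01, and none passed both thresholds. The part of these cell types in the levels of Dkk2 and Nkd2 was not tested.

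Among the inhibitors in the cell membrane, Apcdd1 encodes a glycoprotein that binds Wnt ligands and LRP5. Apcdd1 (chromosome 18, 62922231 to 62961179) was at 1100, 905 and 680 CPM in SA tumors and 56.2, 55.9 and 55.6 in WT penises. The WT penises differed from each other by a coefficient of variation of only 0.504%, against 23.5% among the tumors. Apcdd1 rose by a log2 fold change of 4.0 ± 0.186 SE (adjusted p = 2.36e-06), and its groups were far apart.

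Znrf3 and Rnf43 encode related ubiquitin ligases that remove Frizzled receptors from the cell surface, and R-spondins act by blocking them. Znrf3 (chromosome 11, 5276324 to 5444847) was at 165, 114 and 111 CPM in SA tumors and at 19.8, 27.4 and 28.8 in WT penises. Its log2 fold change was 2.36 (95% interval 1.90 to 2.82, adjusted p = 3.52e-05). Rnf43 (chromosome 11, 87662722 to 87735539) was at 169, 155 and 117 CPM in SA tumors and at 30.7, 36.8 and 30.9 in WT penises. Its log2 fold change was 2.16 (95% interval 1.80 to 2.52, adjusted p = 1.44e-05). Both intervals include the threshold of 2, and in a test against that threshold itself, edgeR's glmTreat, the adjusted p was 0.147 for Znrf3 and 0.496 for Rnf43. The other 6 genes called remained past that test, with an adjusted p of at most 4.28e-05.

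**Figure D2:**
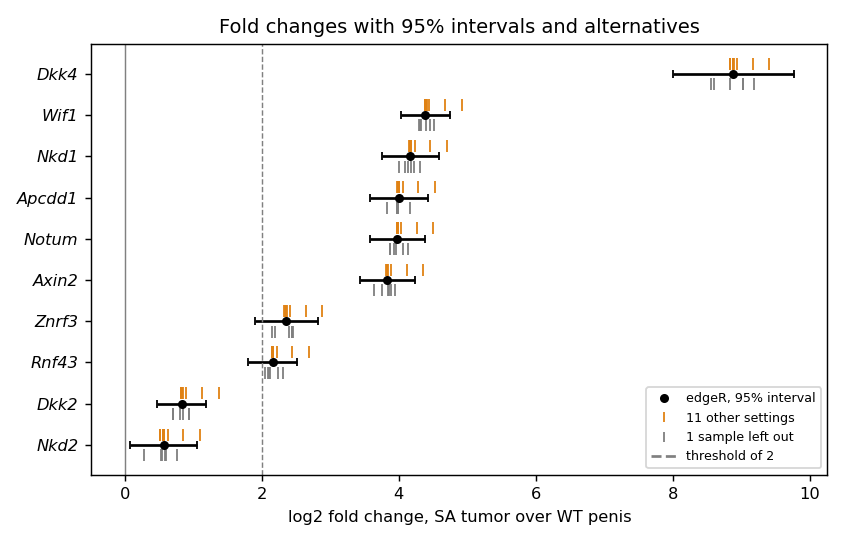
Each black point is the log2 fold change of SA tumors over WT penises with its 95% interval from edgeR (n = 3 each), orange marks are 11 other settings, grey marks are fits without 1 sample, and the dashed line is the threshold of 2. Dkk4 stands at 8.88, a group from Axin2 to Wif1 at 3.83 to 4.39, Znrf3 and Rnf43 near the threshold, and Dkk2 and Nkd2 at 0.83 and 0.57.

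The order of the 3 tumors was shared by many of the genes. In CPM, the first SA tumor was highest and the third lowest in 8 of the 10 genes, the same 8 that were called. For Dkk4, tumors 2 and 3 differed only as 166 and 165. The share of all genes tested with this order was not determined, so the order is not shown to be particular to these genes. In TPM the second tumor was the lowest for Dkk4, at 217 against 229 in the third, and for Znrf3, at 27.2 against 28.1. Dkk2 had the opposite order, and Nkd2 was highest in the second tumor. The ratio of the highest to the lowest tumor was 1.77 for Dkk4, 1.62 for Apcdd1 and 1.21 for Wif1. The third library was also the deepest, and summed leukocyte markers had the opposite order, with 125, 231 and 368 CPM in tumors 1 to 3, as had endothelial markers with 179, 219 and 305 CPM. WT penises had 84.1 to 131 CPM of leukocyte and 328 to 398 CPM of endothelial markers. Summed epithelial markers were at 17500, 17100 and 18800 CPM in tumors 1 to 3, highest in the third, whereas their mean log2 CPM, which weights each marker equally, was 9.05, 9.02 and 8.93. Whether the share of epithelial cells accounts for the order of the tumors was not tested.

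Levels of different genes were compared per length, as the TPM values that the authors derived from the counts. Summed over the 10 genes, TPM was 2520, 1970 and 1790 in SA tumors and 115, 114 and 123 in WT penises. This is 0.252%, 0.197% and 0.179% of all TPM in the tumors, against 0.0114% to 0.0123% in WT penises.

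In SA tumors, Wif1 and Apcdd1 led with 587 ± 57.8 and 567 ± 130 TPM (SD, n = 3), and their ranges overlapped. Next came Dkk4 at 280 ± 100 TPM, Notum at 206 ± 36.1, Nkd1 at 178 ± 37.4 and Axin2 at 123 ± 27.3, each overlapping with the next. Rnf43 followed at 60.4 ± 10.4 TPM and overlapped with neither neighbor. Dkk2, Znrf3 and Nkd2 were lowest at 33.7 ± 6.02, 32.1 ± 7.69 and 26.0 ± 7.91 TPM, and neighbors among them overlapped.

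In WT penises the levels per length were closer together and in another order. Apcdd1 was at 27.4 ± 1.54 TPM and Wif1 at 21.6 ± 2.16 (SD, n = 3), without overlap. Dkk2 and Nkd2 followed at 14.6 ± 1.82 and 13.6 ± 0.363 TPM, and these 2 overlapped. Rnf43 and Notum overlapped at 10.5 ± 1.39 and 10.1 ± 0.881 TPM. Nkd1, Axin2 and Znrf3 were at 7.67 ± 1.08, 6.71 ± 0.986 and 4.87 ± 1.19 TPM, with neighbors overlapping. Dkk4 was last at 0.472 ± 0.202 TPM.

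The largest moves in this order were those of Dkk4, from place 10 in WT penises to place 3 in SA tumors, and of Nkd2, from place 4 to place 10. Dkk4 made up 13.2% ± 2.37 of the summed TPM of the 10 genes (SD, n = 3) in SA tumors and a share of 0.397% ± 0.152 in WT penises. Dkk2 and Nkd2 together made up 2.97% ± 0.964 in SA tumors, against 24.0% ± 1.29 in WT penises. Wif1 and Apcdd1 together made up 55.2% ± 1.30 and 41.7% ± 1.33. These shares are a description without a test.

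**Figure D3:**
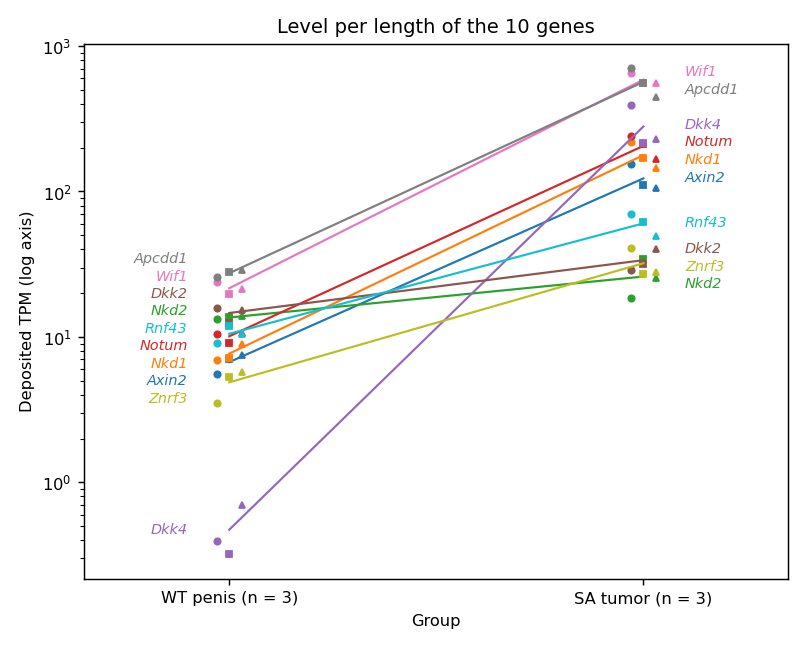
Points are the deposited TPM of each gene in each sample on a log axis, with the replicate number by shape, and lines join the group means (n = 3 each). The line of Dkk4 crosses those of all genes except Wif1 and Apcdd1, while the lines of Dkk2 and Nkd2 are the flattest.

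Within the 3 pairs of related genes, the change was compared as the log2 ratio of the members of a pair in each sample. The ratio of Nkd1 to Nkd2 in TPM was 12, 4.96 and 5.76 in SA tumors and 0.523, 0.527 and 0.637 in WT penises. Nkd1 was thus the more abundant of the pair in every tumor and the less abundant in every WT penis. The ratio of Dkk4 to Dkk2 in TPM was 13.7, 6.82 and 5.65 in SA tumors and 0.0250, 0.0255 and 0.0455 in WT penises, again with the order of the pair exchanged in all samples. The ratio of Znrf3 to Rnf43 in TPM was 0.585, 0.441 and 0.569 in SA tumors and 0.386, 0.446 and 0.558 in WT penises, and these values overlapped.

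On the log2 scale of CPM, the difference between groups was 3.64 for Nkd1/Nkd2, with SDs of 0.68 among SA tumors and 0.16 among WT penises (n = 3 each). For Dkk4/Dkk2 it was 7.88, with SDs of 0.67 and 0.45. For Znrf3/Rnf43 it was 0.20, with SDs of 0.23 and 0.27. The two-sided exact permutation p was 0.10 for each of the first 2 pairs, the smallest that 3 against 3 samples can give, and 0.30 for the third (0.15, 0.15 and 0.30 adjusted over the 3 pairs). The test therefore could not pass 0.05 at this size.

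**Figure D4:**
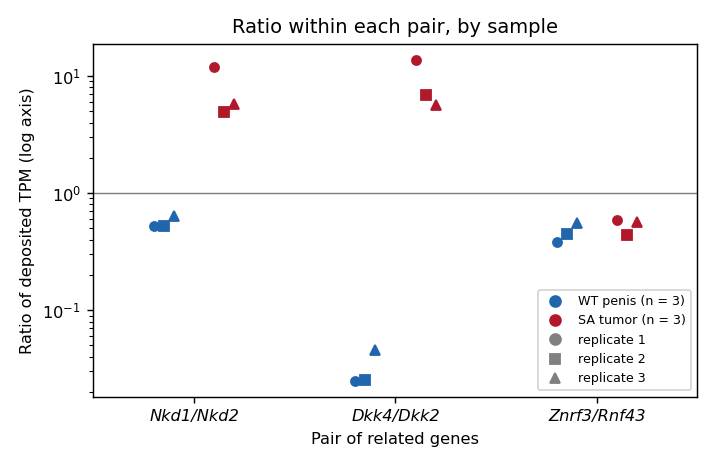
Each point is the ratio of deposited TPM between the 2 genes of a pair in 1 sample on a log axis, with WT penises in blue, SA tumors in red, the replicate number by shape and a line at equal levels. The ratios of Nkd1 to Nkd2 and of Dkk4 to Dkk2 lie on opposite sides of that line in the groups, and those of Znrf3 to Rnf43 overlap.

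Nkd1 and Znrf3 each have 2 transcript rows in the tables, and the row with the higher mean count was used. The second row of Nkd1 held 88.9% to 90.9% of the count of the first over the 6 samples, and that of Znrf3 85.2% to 89.2%, so that the rows share most of their reads. An antisense gene overlaps Axin2 and antisense genes overlap Notum in GENCODE. The libraries were stranded, and the strand setting of the counting is not given in the sources used here.

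The other genes of the pathway were described by lists chosen by name, with earlier results of these data known. Their counts stand beside shares of 9.41% called higher and 3.59% called lower over all genes tested. Of 27 other Wnt antagonists tested, 6 were upregulated and 2 downregulated past both thresholds, with a median log2 fold change of 1.18. Draxin, a secreted antagonist, rose by a log2 fold change of 5.44 (adjusted p = 2.04e-04), from at most 0.334 CPM in WT penises to 6.02 to 13.0 in SA tumors. The WT penises held 0, 10 and 5 counts of Draxin, and its log2 fold change was 6.21 without the second of them and 6.2 with limma-voom. Cxxc4, which binds Dishevelled, rose by 5.19, from 7, 3 and 3 counts in WT penises, and by 5.78 without the first WT penis. Draxin and Cxxc4 passed the filter on low counts only through the SA tumors. Frzb, a secreted Frizzled-related protein, rose by 3.66. Sfrp4 and Sfrp2, of the same Frizzled-related family, fell, with log2 fold changes of -3.68 and -2.34. Sfrp2 did not reach the fold threshold with scaling to the epithelial markers, where its log2 fold change was -1.79.

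Of the other Dickkopf genes, Dkk1, a classic inhibitor of LRP5 and LRP6, was at 1.67, 0.0662 and 1.48 CPM in SA tumors and at 0, 0.0334 and 0 CPM in WT penises, and was not tested because it failed the filter on low counts. The second tumor was far below the other 2. Without the filter its adjusted p was 0.0124 with edgeR, and with DESeq2 it was 0.000154. Dkk3, a divergent member, was at 118, 157 and 157 CPM in SA tumors and at 42.6, 36.3 and 48.6 in WT penises, a log2 fold change of 1.76 (adjusted p = 3.74e-05), below the fold threshold. Its log2 fold change was 2.05 with library totals only and 2.30 with scaling to the epithelial markers.

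Of 28 known β-catenin target genes, 16 were upregulated and 1 was downregulated, with a median log2 fold change of 2.44. The FGF ligands Fgf20 and Fgf4 and the homeobox gene Cdx1 rose most, by 9.26, 8.17 and 8.49, from at most 0.362 CPM in any WT penis. The WT penises held 0 to 3 counts of Fgf20 and 0 to 1 of Cdx1, so the fitted fold changes of both rest on few counts. Both genes and Fgf4, with 5 to 8 counts in WT penises, passed the filter only through the SA tumors. The log2 fold change of Fgf20 was 10.63 without the first WT penis, and that of Cdx1 was 7.79 without the second. Ascl2, a transcription factor known from intestinal stem cells, fell by 2.49 on the log2 scale, and by 1.94, under the fold threshold, with scaling to the epithelial markers. Among 16 Wnt ligands tested, 6 were upregulated and 2 downregulated (median 0.90). Wnt7a, Wnt10b and Wnt16 rose most, by 8.22, 5.03 and 4.39. Wnt7a had 0 to 4 counts in WT penises and also passed the filter only through the SA tumors. Its fitted value rests on few counts and was 9.24 without the first WT penis. Wnt2 and Wnt3 fell, with log2 fold changes of -3.13 and -2.02. The adjusted p of Wnt2 was 0.0106 without the second SA tumor, and its log2 fold change was -3.83 without the third. Wnt3 fell short of the fold threshold under 3 of the other scalings (log2 fold changes of -1.96 to -1.49) and without the first SA tumor (-1.91) or the third WT penis (-1.93).

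Of 20 receptors and R-spondins, 2 were upregulated and 1 was downregulated (median 0.39), shares near the 9.41% and 3.59% of all genes tested. Rspo4 and the receptor gene Ror1 rose by 4.15 and 2.68, and Rspo2 fell by 3.26 on the log2 scale, from 1.08 to 1.28 CPM in WT penises to at most 0.171 in SA tumors. The SA tumors held 2, 1 and 21 counts of Rspo2, the first and second of them under the floor of 3 counts. Rspo2 passed the filter on low counts only through the WT penises. Without the third SA tumor the log2 fold change of Rspo2 was -4.33. None of the 14 genes of the destruction complex and its effectors passed both thresholds (edgeR), 2 were higher and 2 lower at an adjusted p under 0.01, and the median was 0.01. Ctnnb1, which encodes β-catenin, had a log2 fold change of 0.63 (adjusted p = 0.00536), but its adjusted p was 0.0112 to 0.0321 in the 5 fits without the first or second SA tumor or any 1 of the WT penises. In all, 30 of the 105 tested genes of these 5 lists were called higher and 6 lower, beside 8 and 0 of the 10 feedback inhibitors. The shares of all genes tested were 9.41% and 3.59%.

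**Figure D5:**
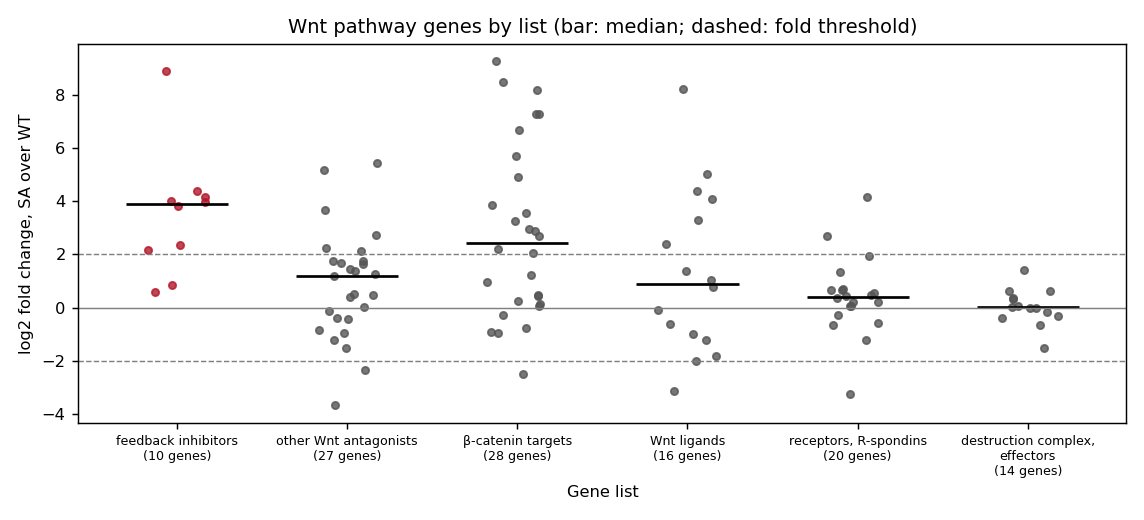
Each point is the log2 fold change of 1 tested gene, grouped by list, with the median as a bar and dashed lines at the fold threshold of 2 in either direction. Feedback inhibitors (red) have a median of 3.91 and all lie above 0, while the other lists (grey) have medians from 0.01 to 2.44 and hold genes on both sides of 0.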

How the data were processed

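RNA from 3 SA tumors and 3 WT penises was sequenced as stranded 76-nt paired-end libraries. Reads were mapped to mm10 by Tophat and counted by HTSeq (versions not given in the sources used here), and the authors deposited raw counts for 33068 RefSeq transcript rows. The authors also deposited TPM and FPKM values made from the counts. TPM was used to compare levels between genes, and FPKM was not used. Transcripts of a gene share reads, so each symbol was represented by its row with the highest mean count.

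Counts were tested in R 4.3.3 with edgeR 4.0.16 (filterByExpr with a minimum of 10 counts, TMM, robust quasi-likelihood fit, Benjamini-Hochberg adjustment over all 16336 genes). Thresholds of 0.01 on the adjusted p and 2 on the log2 fold change follow the study's methods, which name DESeq2. Standard errors are the fold change over the root of F. Log ratios used a prior count of 2. Alternatives were DESeq2 1.42.0, limma-voom (limma 3.58.1), glmTreat, other scalings (RLE, upper quartile, library totals, epithelial markers), other filters, summed or first transcript rows, a replicate block, and each sample left out.

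The 10 genes, the pathway lists and the lists of epithelial, fibroblast, smooth muscle, endothelial, leukocyte, cartilage and bone, skeletal muscle, and nerve and Schwann cell markers were chosen with earlier results of these data known. Cartilage and bone markers had a summed level of 33.8 to 40.1 CPM in SA tumors and 7.43 to 16.3 in WT penises, skeletal muscle markers 5.43 to 7.51 and 10.3 to 15.5, and nerve and Schwann cell markers 62.6 to 79.7 and 193 to 231. Matn3 in the first list and Myh4 and Myl1 in the second had no count in at least 1 group. Genes outside the 10 were named by rule, as Apc, Smad4, Ctnnb1, Dkk1, Dkk3 and, in each pathway list, the 3 largest increases and decreases among genes called. The study's methods count the SA mice but not the WT mice. Its legend gives n = 3 for each genotype, and its statistics section describes n as biological samples. Whether each WT sample came from a separate mouse is not stated, and p-values measure the spread between these samples. Gene positions are from GENCODE M21 (GRCm38), and promoter sequences from RefSeq, which held 6 of the 10 genes; Notum, Dkk4, Apcdd1 and Znrf3 were not in that table.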

Additional observations from a re-analysis of the deposited data

How the results depend on the processing

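The 8 inhibitor genes called remained past both thresholds, each in the same direction, in every one of the 11 other settings and in all 6 fits without 1 sample, and the exception was glmTreat, under which 6 genes were called. The count at an adjusted p under 0.01 was 9 in the reported fit, 10 with library totals only and with epithelial marker scaling, and 8 to 10 when 1 sample was left out. With the replicate block, 8 genes were called and 9 had an adjusted p under 0.01. The replicate numbers do not pair the samples by any label, and deviations of samples with the same number correlated at -0.135, -0.105 and 0.0238. The difference in log ratio of the paralogs kept its sign in every alternative run and without each sample, where it was 3.25 to 3.89 for Nkd1/Nkd2, 7.5 to 8.14 for Dkk4/Dkk2 and 0.08 to 0.35 for Znrf3/Rnf43. Scaling to the epithelial markers moved the median log2 fold change of all genes from 0.0288 to 0.564, with 2044 genes called higher and 356 lower in place of 1537 and 587, and library totals moved it to 0.315 (1793 and 448). Over the 5 other pathway lists, 6 genes were called lower, 1 with glmTreat and 3 with epithelial marker scaling, where the shift of all genes is part of the alternative itself. Among the 10 inhibitor genes, Dkk4, with 9 to 14 counts in WT penises, is the one whose fold is limited by depth.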
